A study of Mus musculus with 12 samples.

Results

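The genes described here are the enzymes that write and erase DNA methylation, and 1 protein that reads it, in the medial prefrontal cortex (mPFC) of mice. They were the rows of the deposited table with the gene names Dnmt1, Dnmt3a, Dnmt3b, Tet1, Tet2, Tet3 and Mbd2, which are 7 of the 34745 genes in that table, and 7 of 7 were found. The study asked how the mPFC, a cortical area involved in how unpleasant pain is felt to be, differs in its transcripts 28 days after chronic constriction injury (CCI), in which loose ties around the sciatic nerve give lasting neuropathic pain. The 12 libraries fell into 3 groups of 4: right mPFC from CCI mice (contralateral to the injury), left mPFC from the CCI mice (ipsilateral), and mPFC from naive animals, which had no operation and 28 days of habituation. All mice were wild type and, per the series' design text, male. The labels give no age or strain, no hemisphere for the naive libraries, and no sham-operated group, so surgery and nerve injury cannot be told apart. The code of each CCI library holds a number and a side, and a left and a right library that share a number are taken here as 1 animal, which gives 4 CCI mice.

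DNA methylation is the addition of a methyl group to cytosine, mostly where a G follows (CpG). DNMT1 copies the pattern onto the new strand after replication, and DNMT3A and DNMT3B place new marks. TET1, TET2 and TET3 oxidise the methyl group to hydroxymethylcytosine and beyond, which opens the way to its removal, and neurons are rich in hydroxymethylcytosine. MBD2 binds methylated CpG and brings the NuRD repressor complex to it. In the adult brain, where most neurons no longer divide, DNMT3A also methylates cytosines outside CpG.

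The starts of Dnmt3a and Tet2 are shown because these 2 genes had the widest spread between libraries for their level, as given below, and because the gene-level counts pool the starts of Dnmt3a. The windows run from 250 bases before to 50 bases after a transcription start (RefSeq, GRCm38.p6), and capitals mark each CpG, searched as CG, which reads the same on both strands. The first Dnmt3a window (chr12:3806910-3807209, plus strand) lies at an upstream start, the second (chr12:3891494-3891793, plus strand) at an internal start, and the Tet2 window (chr3:133544341-133544640, minus strand) at its start in that table.
Dnmt3a upstream start: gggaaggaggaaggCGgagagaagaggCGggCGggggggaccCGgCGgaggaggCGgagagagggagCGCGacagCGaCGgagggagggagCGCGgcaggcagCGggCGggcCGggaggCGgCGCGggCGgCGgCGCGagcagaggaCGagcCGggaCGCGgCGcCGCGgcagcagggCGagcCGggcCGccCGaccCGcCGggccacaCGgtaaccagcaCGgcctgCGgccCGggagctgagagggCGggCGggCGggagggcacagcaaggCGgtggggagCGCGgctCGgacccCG
Dnmt3a internal start: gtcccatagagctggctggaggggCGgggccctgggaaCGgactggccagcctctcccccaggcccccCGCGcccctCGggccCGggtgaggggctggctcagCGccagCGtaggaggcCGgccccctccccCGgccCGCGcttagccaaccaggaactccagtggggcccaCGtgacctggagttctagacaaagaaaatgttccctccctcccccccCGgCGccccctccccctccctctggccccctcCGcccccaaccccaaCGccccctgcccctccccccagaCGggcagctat
Tet2 start: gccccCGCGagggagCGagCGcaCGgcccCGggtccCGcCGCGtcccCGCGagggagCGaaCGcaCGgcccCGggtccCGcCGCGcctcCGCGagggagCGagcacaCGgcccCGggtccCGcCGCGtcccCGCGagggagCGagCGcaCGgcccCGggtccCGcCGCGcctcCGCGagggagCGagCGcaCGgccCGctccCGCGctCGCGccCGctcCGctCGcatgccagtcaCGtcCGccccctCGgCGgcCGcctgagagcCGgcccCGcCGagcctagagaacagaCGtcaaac
They hold 47, 18 and 57 CpG. The median over 32851 windows of the same length was 7, and 94.6% of the windows held at least 1. The upstream Dnmt3a window was taken as the one with the most CpG among the starts of that gene, which favours a high rank. It had more CpG than 98.6% of the 32851 windows, the internal one more than 70.3% and the Tet2 window more than 99.8%. Of the 7 genes, 6 matched the RefSeq table by symbol. The other windows held 2, 12 and 33 CpG for 3 starts of Dnmt1, 46 for a further start of Dnmt3a, 30 for Dnmt3b, 17 for Tet1 and 22 for Tet3. No methylation was measured in these libraries, so the windows describe the genes and not their state.

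Total counts ranged from 16.1 to 20.6 M per library. Markers of cortical excitatory neurons (7 of 7, among them Slc17a7) had counts in every library, and the skeletal muscle and liver markers summed to at most 11.2 and 7.67 CPM (counts scaled to library size, with TMM factors). Summed oligodendrocyte markers ranged from 2200 to 4909 CPM in contralateral, 2193 to 4206 CPM in ipsilateral and 2439 to 3172 CPM in naive libraries, and summed striatum markers from 99.1 to 234.6, 122 to 163 and 123 to 147 CPM. The part of these differences in the values below was not tested. In bulk tissue, fewer cells of a type and less RNA per cell cannot be told apart.

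On the 2 scales of level per length used here, Dnmt1 was the highest of the 7 genes and Dnmt3b the lowest. In the authors' FPKM, a level per length, the means over 12 libraries were 13.7 for Dnmt1, 6.54 for Mbd2, 4.28 for Dnmt3a, 3.91 for Tet3, 1.64 for Tet2, 0.397 for Tet1 and 0.0991 for Dnmt3b. The ranges over the libraries overlapped for Dnmt3a (2.43 to 5.14 FPKM) and Tet3 (3.11 to 4.45 FPKM), and for no other neighbours in this order. The order of the TET genes was thus Tet3, Tet2, Tet1, and that of the writers Dnmt1, Dnmt3a, Dnmt3b.

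The FPKM values rest on long gene lengths. Count divided by FPKM implies a length of 29.2 kb for Dnmt3a, 28.9 kb for Tet1 and 30.0 kb for Tet2, where the merged exons in GENCODE M21 come to 16.6, 15.5 and 16.9 kb, while for Dnmt1 it implies 6.38 kb against 7.38 kb of merged exons. With the GENCODE M21 lengths, a choice made after seeing the data, the order stayed the same with means of 11.8 (Dnmt1), 8.83 (Mbd2), 7.52 (Dnmt3a), 4.46 (Tet3), 2.92 (Tet2), 0.742 (Tet1) and 0.174 (Dnmt3b) CPM per kb. On that scale the ranges of Mbd2 and Dnmt3a, of Dnmt3a and Tet3, and of Tet3 and Tet2 overlapped. Both scales pool the exons of a gene. The longest single transcript in GENCODE M21 is 5.87 kb for Dnmt1 and 1.95 kb for Mbd2, against 7.38 and 3.21 kb of merged exons. The order on that length was not computed, so the place of Dnmt1 above Mbd2 holds for these 2 scales only.

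**Figure D1:**
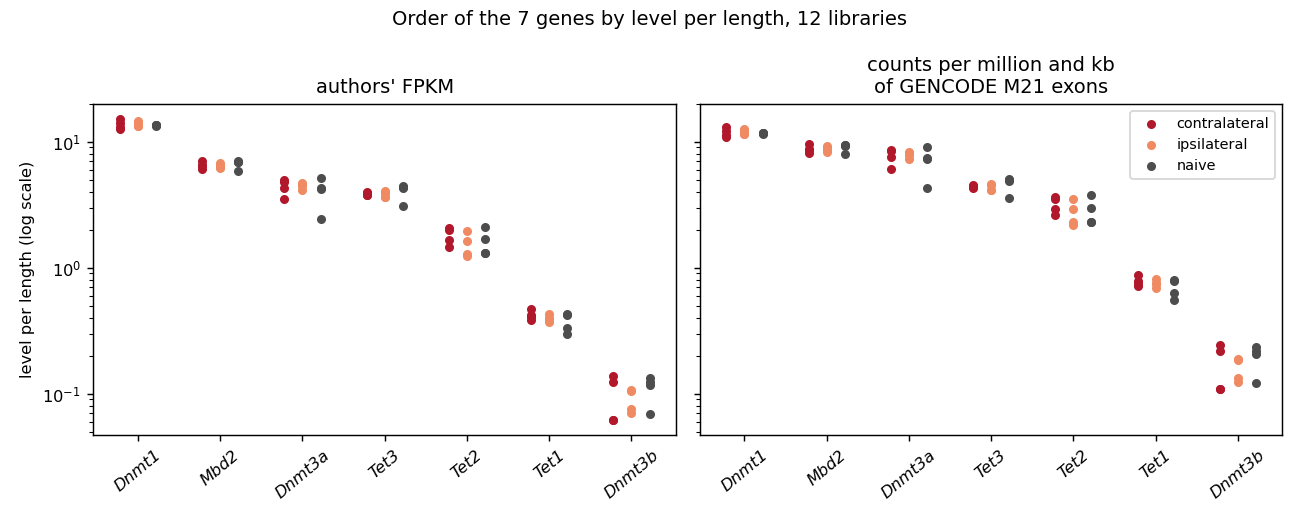
Level per length (log axis) of the 7 genes in 12 libraries, in the authors' FPKM (left) and in CPM per kb of GENCODE M21 exons (right). Points are libraries, coloured by group. Dnmt1 lay highest and Dnmt3b lowest on both scales, and the 3 groups overlapped for every gene.

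No gene of the 7 passed in any of the 4 comparisons, which were contralateral against naive, ipsilateral against naive, contralateral against ipsilateral, and CCI mice (both hemispheres summed) against naive. A gene passed at an edgeR quasi-likelihood p, adjusted by Benjamini-Hochberg over all genes tested, under 0.05. All 7 had counts high enough to be tested. The share of all tested genes that passed was 0% in each comparison. At an unadjusted p under 0.05, 0 of the 7 genes stood in each comparison, beside 3.78% of 15808 genes for contralateral against naive, 4.83% for ipsilateral against naive, 8.36% for contralateral against ipsilateral and 4.2% of 16179 genes for CCI mice against naive. The groups overlapped for all 7 genes in all 4 comparisons, where separate ranges were seen for 2.2%, 4.73%, 2.95% and 2.71% of the genes tested. limma voom and DESeq2 also called 0 of the 7, while over all genes DESeq2 called 3, 9, 0 and 31 in these 4 comparisons and limma voom 0 in each. The log2 fold change was positive for 4, 3, 3 and 4 of the 7 genes, beside 50.1%, 49.9%, 51.1% and 50.3% of all genes tested.

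**Figure D2:**
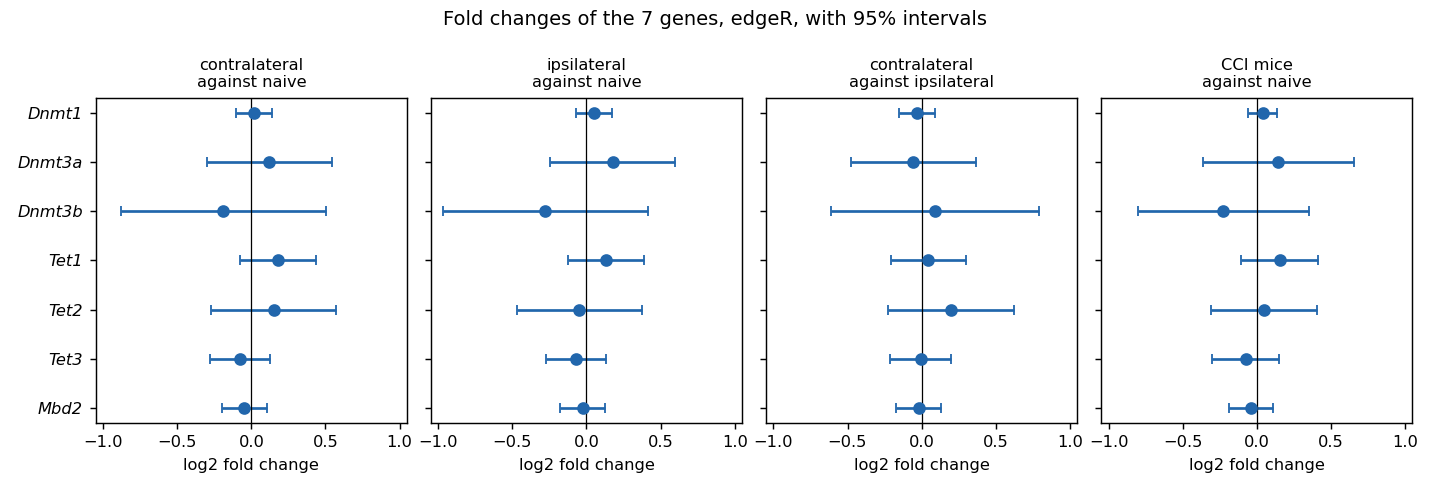
Log2 fold changes of the 7 genes in the 4 comparisons with 95% intervals from the edgeR fit (4 libraries or mice a group). All 28 intervals cross 0. They are narrowest for Dnmt1 and Mbd2 and widest for Dnmt3b.

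Dnmt1 (ENSMUSG00000004099; chromosome 9, 20907206 to 20959888, minus strand, GRCm38/mm10), the maintenance methyltransferase, was the most even of the 7 genes. It was at 94.8, 84.4, 80.2 and 89.6 CPM in contralateral libraries 1 to 4, at 91.5, 92.9, 86.2 and 85.9 CPM in ipsilateral libraries 1 to 4, and at 85.8, 86.1, 85.6 and 86.6 CPM in naive libraries 1 to 4. The 4 naive libraries lay closer together than those of either CCI group, and the ranges of both CCI groups overlapped theirs. Its log2 fold change was 0.020 (SE 0.056) for contralateral against naive, 0.051 (SE 0.056) for ipsilateral against naive and 0.038 (SE 0.045) for CCI mice against naive. For CCI mice the 95% interval of the fold was 0.959 to 1.10. The coefficient of variation was 7.27% in contralateral, 4.04% in ipsilateral and 0.515% in naive libraries, where counting alone gives about 2.56%, 2.48% and 2.60%. The naive spread was thus below the counting error, and was not tested against the other groups.

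Dnmt3a (ENSMUSG00000020661; chromosome 12, 3806007 to 3914443, plus strand), the main de novo enzyme of mature neurons, was at 122, 145, 101 and 139 CPM in contralateral libraries 1 to 4, at 138, 129.8, 138 and 122 CPM in ipsilateral libraries, and at 70.6, 149.8, 125 and 122 CPM in naive libraries. Naive 1 was the lowest of all 12 libraries and naive 2 the highest, so the naive range enclosed both CCI groups. The means were 127 ± 19.5 CPM in contralateral, 132 ± 7.50 CPM in ipsilateral and 117 ± 33.2 CPM in the naive libraries (SD, n = 4 per group). The log2 fold change was 0.12 (SE 0.19) for contralateral and 0.18 (SE 0.19) for ipsilateral against naive, and 0.15 (SE 0.21) for CCI mice, with edgeR adjusted p = 1.00, 0.975 and 1.00. All 3 turned negative without naive 1, at -0.052, -0.00066 and -0.031. The 95% interval of the fold for CCI mice was 0.778 to 1.57.

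In naive 1, log2 CPM of Dnmt3a minus the mean of the other naive libraries was -0.90, and 0.744% of 7927 genes with a mean above 20 CPM lay lower there. Tet3 was low in the same library, at -0.49, and so was Dnmt3b, at -0.77 on 11 counts. Over the 12 libraries, which share mice and depth, log2 CPM of Dnmt3a and Tet3 had Pearson's r = 0.74, and r = 0.30 without naive 1. Dnmt1 (-0.0051), Tet1 (-0.18), Tet2 (0.13) and Mbd2 (0.059) were closer to the other naive libraries. The antisense gene Dnmt3aos, which shares 133 exon bases with Dnmt3a in GENCODE M21, had a count of 0 in all 12 libraries.

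Dnmt3b (ENSMUSG00000027478; chromosome 2, 153649450 to 153687730, plus strand), the de novo enzyme known mainly from early embryos, was counted with few reads in every library. Its raw counts were 10, 9, 22 and 20 in contralateral, 12, 20, 11 and 17 in ipsilateral and 11, 19, 20 and 18 in naive libraries 1 to 4. The lowest count of 9 has an exact 95% Poisson interval of 4.12 to 17.1 and the highest of 22 one of 13.8 to 33.3, counting error only. These intervals overlap, which does not test whether the 2 counts differ. The coefficient of variation was 41.9% in contralateral, 22.1% in ipsilateral and 26.2% in naive libraries. Counting alone gives about 25.6%, 25.8% and 24.3%. The log2 fold change was -0.19 (SE 0.32) for contralateral against naive, -0.28 (SE 0.32) for ipsilateral against naive and -0.23 (SE 0.26) for CCI mice against naive. The 95% interval of the fold for CCI mice was 0.573 to 1.27.

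**Figure D3:**
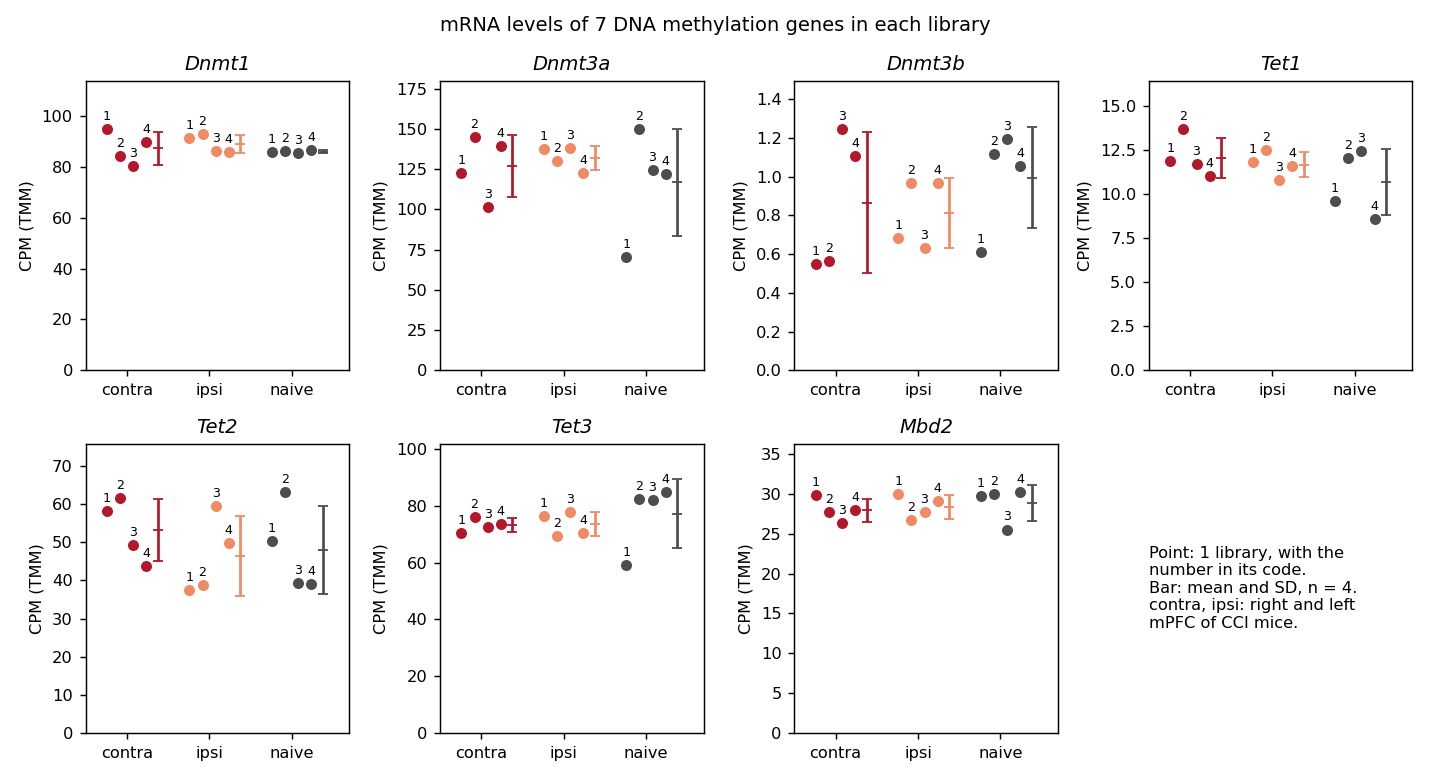
TMM-scaled CPM of the 7 genes in each library, with the number in the library code beside the point, and the mean and SD of each group (n = 4). Dnmt1 and Mbd2 were even across groups. Naive 1 was lowest for Dnmt3a and Tet3, and Tet2 spread widely within every group.

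Tet1 (ENSMUSG00000047146; chromosome 10, 62804570 to 62899118, minus strand), a 5-methylcytosine dioxygenase with its own CpG-binding CXXC domain, was the lowest of the TET genes. It was at 11.9, 13.7, 11.7 and 11.02 CPM in contralateral, at 11.8, 12.5, 10.8 and 11.6 CPM in ipsilateral and at 9.59, 12.1, 12.4 and 8.62 CPM in naive libraries 1 to 4. The lowest levels were those of naive 1 and naive 4, while naive 2 and 3 lay among the CCI libraries. Tet1 had the smallest unadjusted p of the 7 genes in each comparison with naive, with log2 fold changes of 0.18 (SE 0.12) for contralateral, 0.13 (SE 0.12) for ipsilateral and 0.15 (SE 0.12) for CCI mice. None passed, with edgeR adjusted p = 1.00, 0.972 and 1.00, and the 95% interval of the fold for CCI mice was 0.931 to 1.33. The naive libraries are shared by these 3 comparisons, so the common sign is not 3 separate observations.

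Tet2 (ENSMUSG00000040943; chromosome 3, 133463679 to 133545139, minus strand), the TET enzyme without a CXXC domain, differed between the hemispheres of mice 1 and 2, as given below. It was at 58.2, 61.7, 49.4 and 43.7 CPM in contralateral libraries 1 to 4, at 37.4, 38.7, 59.6 and 49.9 CPM in ipsilateral libraries, and at 50.3, 63.2, 39.2 and 39.0 CPM in naive libraries. Each group held libraries near 40 CPM or a little above and libraries near 60, and the 3 groups overlapped. With both hemispheres summed, the 4 CCI mice lay between 46.9 and 54.5 CPM, within the naive range. The log2 fold change was 0.15 (SE 0.19) for contralateral against naive, -0.048 (SE 0.19) for ipsilateral against naive and 0.046 (SE 0.15) for CCI mice against naive, where the 95% interval of the fold was 0.806 to 1.32. The within-group SD was 0.30 log2 units, above that of 92.6% of the 1001 genes nearest in level, beside 94.2% for Dnmt3a (0.30), 76.6% for Tet3 (0.15), 54.9% for Tet1 (0.17), 51.8% for Dnmt3b (0.42), 23.4% for Mbd2 (0.090) and 22.9% for Dnmt1 (0.069). Gm42567, an antisense model that shares 43 exon bases with Tet2, had at most 1 count in a library.

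Tet3 (ENSMUSG00000034832; chromosome 6, 83362373 to 83459084, minus strand), the TET gene with the highest level per length here, was at 70.3, 76.2, 72.4 and 73.6 CPM in contralateral libraries 1 to 4, at 76.3, 69.5, 77.9 and 70.4 CPM in ipsilateral libraries, and at 59.0, 82.5, 82.1 and 84.9 CPM in naive libraries. The 8 CCI libraries lay between the low naive 1 and the other 3 naive libraries. The log2 fold change was -0.077 (SE 0.095) for contralateral, -0.070 (SE 0.095) for ipsilateral and -0.075 (SE 0.10) for CCI mice against naive, the last with a 95% interval of the fold of 0.812 to 1.11. Without naive 1 these values were -0.18, -0.18 and -0.18, with edgeR adjusted p = 1.00, 0.984 and 0.941.

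Mbd2 (ENSMUSG00000024513; chromosome 18, 70568189 to 70626131, plus strand), the reader among the 7, was at 29.8, 27.8, 26.3 and 28.0 CPM in contralateral libraries 1 to 4, at 30.0, 26.7, 27.7 and 29.0 CPM in ipsilateral libraries, and at 29.7, 30.0, 25.5 and 30.2 CPM in naive libraries. The lowest library was naive 3, and the groups overlapped almost fully. Log2 fold changes against naive were -0.046 (SE 0.070) for contralateral, -0.027 (SE 0.070) for ipsilateral and -0.037 (SE 0.068) for CCI mice. For CCI mice the 95% interval of the fold was 0.879 to 1.08.

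The hemispheres of CCI mice were compared to ask whether the side opposite to the injured nerve differed. For 6 of the 7 genes the log2 fold change of contralateral against ipsilateral lay between -0.055 and 0.088, and for Tet2 it was 0.20 (SE 0.19, edgeR adjusted p = 0.781). This fit had no term for the mouse, so it did not pair the hemispheres. Over all settings with no library left out, among them a fit with a term for the library number, Tet2 stood at 0.20 to 0.21. Read within mice, Tet2 was higher on the right by 0.64 and 0.67 log2 units in mice 1 and 2 and lower on the right in mice 3 and 4, at -0.27 and -0.19. Summed oligodendrocyte markers were at 4424, 4909, 2257 and 2200 CPM on the right and at 4206, 3202, 2976 and 2193 CPM on the left of mice 1 to 4, and their part in the Tet2 values was not tested. Dnmt3a stood at -0.17, 0.16, -0.45 and 0.19 in mice 1 to 4, and Tet3 at -0.12, 0.13, -0.11 and 0.064. Dnmt3a and Tet3 had the same sign in each mouse, and Dnmt3b, at -0.32, -0.79, 0.98 and 0.20, had the opposite sign of Tet2 in each. With 4 mice and 7 genes, some pairs can match in this way by chance, and no pair was tested. Of the 7 genes, 5 were higher on the right in 2 mice and lower in 2, Tet1 was higher in 3 of 4 mice, and Mbd2 in 1 of 4.

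**Figure D4:**
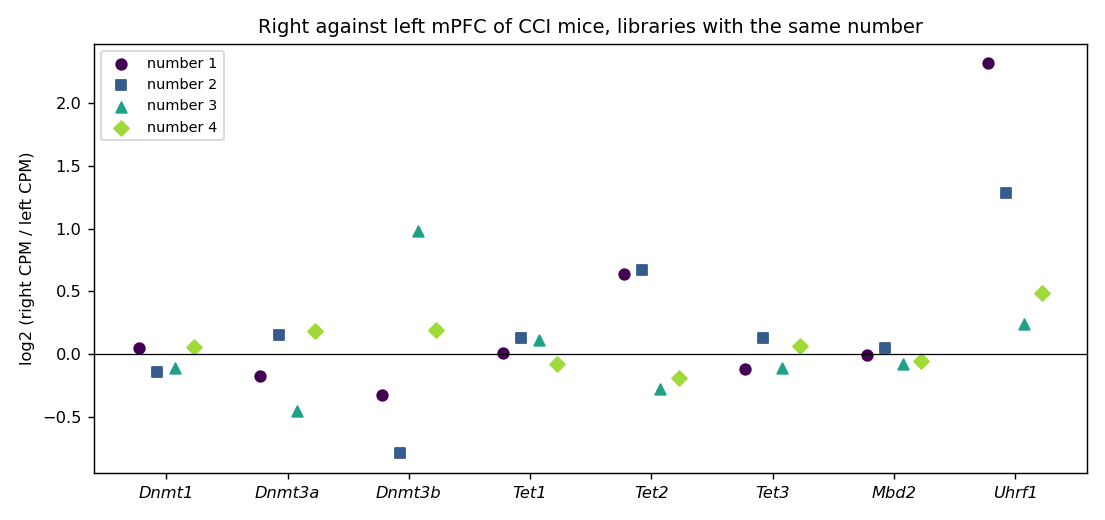
Log2 ratio of the right (contralateral) to the left (ipsilateral) CPM in CCI libraries with the same number, for the 7 genes and Uhrf1. Tet2 lies above 0 in mice 1 and 2 and below it in mice 3 and 4. Uhrf1, given in this comparison because its p was smallest there, lies above 0 in all 4.

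The other genes of the pathway were read in 8 lists of 61 genes, all in the table, of which 58 could be tested. Dnmt3l, the cofactor of de novo methylation in germ cells (at most 4 counts in a library), Neil3 (at most 12) and Apobec2 (at most 2) were too low. Of these 58 genes, 0 passed in any of the 4 comparisons in edgeR. Their median log2 fold change was 0.019 for contralateral against naive (33 positive, 25 negative), 0.019 for ipsilateral against naive (36 and 22), -0.0086 for contralateral against ipsilateral (26 and 32) and 0.011 for CCI mice against naive (34 and 24). The medians over all tested genes were 0.00029, -0.00045, 0.0049 and 0.00054. At an unadjusted p under 0.05 there were 0, 1, 7 and 0 of the 58. The background shares at that level are those given above.

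**Figure D5:**
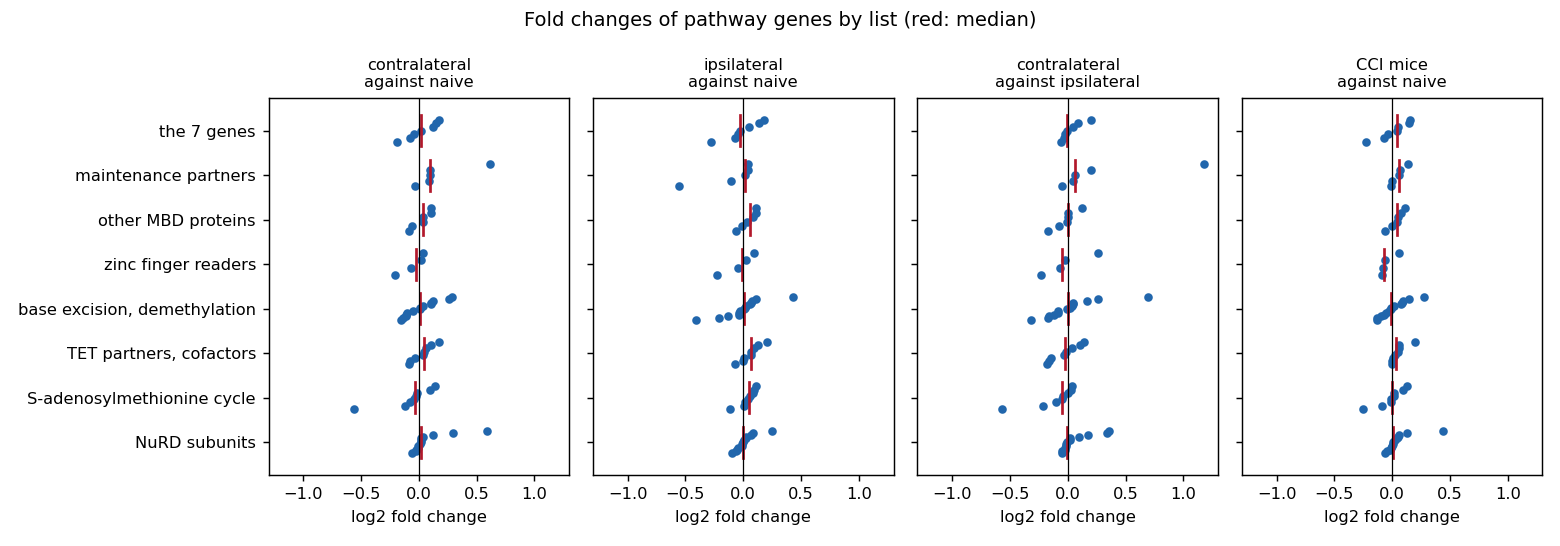
Log2 fold changes of the 7 genes and of the pathway lists with tested members, in the 4 comparisons. Each point is a gene and the red line is the median of a list. The medians of the lists lie between -0.071 and 0.093, and the point farthest from 0 is Uhrf1 in contralateral against ipsilateral.

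Among the maintenance partners, Uhrf1, which brings DNMT1 to newly copied DNA, had raw counts of 62, 17, 24 and 23 in contralateral, 12, 9, 20 and 16 in ipsilateral and 27, 17, 13 and 23 in naive libraries 1 to 4. This was 1.77 ± 1.09 CPM in contralateral against 0.796 ± 0.306 CPM in ipsilateral libraries (SD, n = 4 each), with a log2 fold change of 1.18 (SE 0.40; edgeR unadjusted p = 0.0114, adjusted p = 0.592). It was higher on the right in 4 of 4 mice, by 0.24 to 2.31 log2 units. Uhrf1 is given in this comparison because its p was smallest there, so this count on the same libraries adds no separate support. The share of all tested genes with the same sign in 4 of 4 mice was not counted. Contralateral 1 stood far above the other contralateral libraries. Without that library the log2 fold change was 0.64. That library was also the one with the highest summed striatum markers (234.6 CPM), whose part was not tested. Pcna, the replication clamp that DNMT1 binds, stood at 0.099 (SE 0.072) for contralateral against naive, or 0.15 without contralateral 3.

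The list of base excision and demethylation repair also held Apobec3, a cytidine deaminase known for restricting retroviruses. Apobec3 was at 3.37 ± 1.07 CPM in contralateral and 2.10 ± 0.520 CPM in ipsilateral libraries (SD, n = 4 each). Its log2 fold change was 0.69 (SE 0.23, edgeR adjusted p = 0.592). It was highest in contralateral 3 and 4, at 4.42 and 4.04 CPM, and at most 2.96 CPM in every other library. The same 2 libraries had the highest summed microglia markers (346 and 394 CPM, against 274 to 291 CPM in ipsilateral libraries), astrocyte markers (1147 and 1280 CPM, against 825 to 925 CPM) and endothelial markers (240.03 and 254 CPM, against 183 to 201 CPM). Their blood markers summed to 45.7 and 48.0 CPM, against 29.5 to 32.7 CPM in ipsilateral libraries. In naive libraries, where Apobec3 was at 2.69 to 2.95 CPM, blood markers summed to 32.2 to 46.7 CPM and microglia markers to 285 to 344 CPM. Astrocyte markers there summed to 942 to 1050 CPM and endothelial markers to 197 to 229 CPM. All markers of these 4 lists had counts in every library, and their part in the Apobec3 values was not tested. Apex1, the endonuclease that cuts at the abasic site left by a glycosylase, lay between 17.4 and 21.2 CPM in ipsilateral and between 20.7 and 24.4 CPM in naive libraries, with a log2 fold change of -0.21 (SE 0.079; edgeR adjusted p = 0.972). Tdg, the glycosylase that removes the oxidised bases made by TET enzymes, stood at -0.17 (SE 0.11) for contralateral against ipsilateral. The activity-regulated Gadd45b, which promotes demethylation at neuronal genes, stood at 0.11 (SE 0.20) for contralateral against naive, or -0.056 without contralateral 4.

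Among the readers, between contralateral and ipsilateral libraries, Mbd3, the NuRD subunit related to MBD2, stood at 0.12 (SE 0.090), Mbd6 at -0.17 (SE 0.11), the imprint-protecting zinc finger gene Zfp57 at 0.26 (SE 0.19) and Zbtb38 at -0.23 (SE 0.17). None of these passed, and each moved with single libraries. Zfp57 stood at 0.070 without contralateral 3, Zbtb38 at -0.093 without ipsilateral 4, Mbd3 at 0.061 without ipsilateral 2 and Mbd6 at -0.30 without contralateral 4. With a library left out in turn, the values ranged over 0.070 to 0.39 for Zfp57, -0.36 to -0.093 for Zbtb38, 0.061 to 0.20 for Mbd3 and -0.30 to -0.092 for Mbd6.

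The TET enzymes use 2-oxoglutarate, which isocitrate dehydrogenases make. Idh3a was at 219 ± 23.1 CPM in contralateral and 247 ± 9.63 CPM in ipsilateral libraries, and Idh3b at 197 ± 15.6 CPM in contralateral and 218 ± 9.77 CPM in ipsilateral libraries (SD, n = 4 each). They had log2 fold changes of -0.18 (SE 0.068) and -0.15 (SE 0.057; edgeR adjusted p = 0.592 for both). The groups overlapped for Idh3a (194 to 248 CPM in contralateral, 241 to 262 CPM in ipsilateral libraries) and for Idh3b (188 to 221 and 204 to 226 CPM). Both are subunits of the mitochondrial enzyme of the citric acid cycle. Of the other isocitrate dehydrogenase genes, Idh3g was at 91.4 to 97.9 CPM in contralateral and 93.1 to 99.1 CPM in ipsilateral libraries. Idh1 lay at 35.7 to 42.9 CPM in contralateral and 36.4 to 42.7 CPM in ipsilateral libraries. Idh2 lay at 28.1 to 35.8 CPM in contralateral and 26.7 to 30.8 CPM in ipsilateral libraries, so the groups also overlapped for each of these. In the S-adenosylmethionine cycle, which supplies the methyl group, Gnmt, a glycine methyltransferase counted with 4 to 20 reads a library, stood at -0.57 (SE 0.43) for contralateral against ipsilateral, or -0.30 without ipsilateral 1. Of the NuRD subunits, Cdk2ap1 was at 18.7 ± 4.96 CPM in contralateral and 14.6 ± 1.42 CPM in ipsilateral libraries (SD, n = 4 each), with a log2 fold change of 0.36 (SE 0.15; edgeR adjusted p = 0.592). It was at 25.8 CPM in contralateral 3 and at 14.4 to 18.4 CPM in the other contralateral libraries, and the log2 fold change was 0.17 without contralateral 3. Gatad2b, the other NuRD gene named by the rule, was at 91.1 CPM in contralateral 4 and between 23.7 and 42.1 CPM in the other 11 libraries, and stood at 0.44 (SE 0.25) for CCI mice against naive, or 0.16 without CCI mouse 4.

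The genes whose log2 CPM followed the 7 most closely over the 12 libraries were picked by Pearson's r among 11084 named genes with a mean of at least 5 CPM. With so many candidates and 12 libraries, which share mice and depth, such values of r were found for each of the 7 genes, and they are given as a description. Dnmt1 was closest to Cwf19l2 (r = 0.85) and Rasal1 (0.82), Dnmt3a to Zfp369 (0.89) and Trmt6 (0.89), and Dnmt3b to Tapbpl (0.91) and Ptpn21 (0.88). Tet1 was closest to Eea1 (0.86) and Fam199x (0.86), Tet2 to Trmt10a (0.90) and Thyn1 (0.85), Tet3 to Crebbp (0.87), the histone acetyltransferase CBP, and Zfp652 (0.83), and Mbd2 to Peo1 (0.86) and Natd1 (0.84). None of the 7 genes was among the 2 closest to another, though Dnmt3b, with a mean under 5 CPM, was not a candidate. Given the number of candidates, this says little about the 7.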

How the data were processed

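The authors deposited raw counts per gene for 12 libraries of mPFC, and FPKM values a level per gene length, per the file headers. The submitters' processing notes list the aligner HISAT2 (version 2.0.4) and the build GRCm38/mm10, and per the labels' protocols an mRNA kit was used. The counting program, its use of strand and the annotation: not given in the sources used here. The table holds 34745 genes, 11491 of them at 0 in every library.

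Counts were tested with edgeR 4.0.16 (R 4.3.3) on the whole table, with TMM factors (0.985 to 1.02), filterByExpr by group and robust quasi-likelihood fits. One fit of 12 libraries in 3 groups (15808 genes) gave 3 comparisons, and one fit of 4 CCI mice, left and right counts summed, and 4 naive libraries (16179 genes) gave the fourth. Tests were two-sided, and SE was derived as the absolute log2 fold change over the root of F. The steps were tested on simulated data. limma 3.58.1, DESeq2 1.42.0, other factors, no filter, fits of 2 groups, a replicate block and leaving out each library were alternatives. log2 CPM used a prior count of 2. Intervals of counts cover counting error only. The labels do not say outright that libraries of a group are separate animals, so p-values measure the spread between these samples.

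Left and right libraries with one number are read as one mouse from their codes. Their deviations from the group means correlated at 0.012, -0.14, 0.038 and 0.060 in mice 1 to 4, so the block was kept as an alternative. The highest correlation of each right library with a left library of another number was 0.14, 0.15, 0.070 and 0.095. Each was above the value for the same number, so the reading as one mouse rests on the codes alone.

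The 7 genes and the lists were chosen with earlier results of these data known. The rule named the 7 genes, any pathway gene that passed, else up to 2 per list with the smallest unadjusted p, and a few more, among them Uhrf1, Mbd3, Tdg and Gadd45b. Results for some of these genes are left out and not reported here. Each pathway gene is given in the comparison of its smallest p.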

Additional observations from a re-analysis of the deposited data

Results flagged for a closer look

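A sample far from the other 3 of its group was found in 6 of 72 sets (24 genes in 3 groups of 4 libraries), by Dixon's ratio of the gap to the group's range, above its 95% critical value. Chance gives about 1 in 20 such sets where they are independent and normally spread. These sets share libraries, and most of the pathway genes were picked by their p in the same libraries. The count can therefore not be read against that share, and the share over all tested genes was not counted. Among the 7 genes, Tet3 was at 59.0 CPM in naive 1, against 82.1 to 84.9 CPM in the other naive libraries, and Mbd2 was at 25.5 CPM in naive 3, against 29.7 to 30.2 CPM. Among the pathway genes, Uhrf1 was at 3.40 CPM in contralateral 1, against 1.06 to 1.36 CPM in the other contralateral libraries. Idh3a was at 262 CPM in ipsilateral 4, against 241 to 244 CPM in the other ipsilateral libraries, and Idh3b was at 221 CPM in contralateral 2, against 188 to 191 CPM in the other contralateral libraries. Gatad2b was at 91.1 CPM in contralateral 4, against 23.9 to 33.4 CPM in the other contralateral libraries.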

How the results depend on the processing

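No setting brought any of the 7 genes past the threshold (smallest adjusted p = 0.694, over edgeR, limma voom and DESeq2 fits), nor any of the 17 named pathway genes (smallest adjusted p = 0.0621, for Apobec3 without a library). Of 189 log2 fold changes of the 7 genes under other factors, filters, tools, 2-group fits and the replicate block, 1 changed sign: Tet3 for contralateral against ipsilateral, at 0.0036 with upper quartile factors. Of 224 with a library or mouse left out, 23 did; the values below are the ranges. For contralateral against naive they were -0.021 to 0.063 (Dnmt1), -0.052 to 0.26 (Dnmt3a) and, of the pathway genes, -0.056 to 0.26 (Gadd45b). For ipsilateral against naive they were -0.00066 to 0.32 (Dnmt3a), -0.19 to 0.11 (Tet2) and -0.081 to 0.0018 (Mbd2). For contralateral against ipsilateral they were -0.075 to 0.011 (Dnmt1), -0.12 to 0.042 (Dnmt3a), -0.13 to 0.26 (Dnmt3b), -0.015 to 0.090 (Tet1), -0.028 to 0.023 (Tet3) and -0.054 to 0.012 (Mbd2). For CCI mice against naive they were -0.031 to 0.29 (Dnmt3a) and -0.040 to 0.21 (Tet2). The sign of Dnmt3a against naive rested on naive 1 in all 3 comparisons, and leaving out contralateral 3 turned 5 of 14 values.

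Over all genes the count was 0 in each comparison in the main edgeR fits. For contralateral against naive it was 3 with DESeq2, 1 in the 2-group fit, 2 with the replicate block and 0 to 2 with a library left out. For ipsilateral against naive it was 9 with DESeq2, 7 in the 2-group fit, 6 with the replicate block and 0 to 1 with a library left out. For contralateral against ipsilateral it was 0 to 159 with a library left out, the highest without contralateral 2. For CCI mice against naive it was 31 with DESeq2, 5 with no filter, 1 with the replicate block and 0 to 6 with a library or mouse left out. The cause was not tested. With the replicate block, Tet2 stood at 0.17 for contralateral against naive and Tet1 at 0.16 for CCI mice, and the block changed no call of the 7 genes; the numbers of naive and CCI libraries share only a number, with same-number correlations of deviations of -0.090 to 0.10. With GENCODE M21 lengths the levels were 11.8 (Dnmt1), 8.83 (Mbd2), 7.52 (Dnmt3a), 4.46 (Tet3), 2.92 (Tet2), 0.742 (Tet1) and 0.174 (Dnmt3b) CPM per kb. These counts over all genes and the length change were added after seeing the data. Dnmt3b had the least depth, at 9 to 22 counts a library, with a counting error of 24.3% to 25.8% per group.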

Other observations

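Gadd45b was at 8.005, 8.38, 12.001 and 14.1 CPM in contralateral, at 8.17, 10.3, 11.05 and 11.9 CPM in ipsilateral and at 8.08, 8.71, 9.98 and 12.7 CPM in naive libraries with the numbers 1 to 4. In every group the libraries numbered 3 and 4 were above those numbered 1 and 2. The share of all tested genes with this order was not counted. The labels do not say what the numbers share, and no batch or date is given.

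Dnmt3a was lower on the right than on the left in CCI mice 1 and 3 and higher in mice 2 and 4, and with both hemispheres summed the mice lay at 129.8, 136, 119.7 and 131 CPM. Dnmt3b was at 0.615, 0.792, 0.942 and 1.04 CPM in the summed CCI mice 1 to 4, on raw counts of 22, 29, 33 and 37.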
